A study of Mus musculus with 10 samples.

Results

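The baseline transcriptome of the wild-type mouse midbrain at embryonic day 14.5 was described from 5 of the 10 RNA-seq libraries of a series on human accelerated regions in the RBFOX1 locus. These are the libraries that the labels give as wild-type (Rbfox1 +/+), numbered 1, 2, 4, 5 and 6. They were chosen by that label alone, with no measured value. The other 5 libraries come from embryos homozygous for the deletion of HAR.321 (Rbfox1 ΔHAR.321/ΔHAR.321) and no value of theirs is used here. The samples are described as independent and biological; the sources used here do not give strain, sex, litter, dissection borders or whether 1 sample is 1 embryo. The wild-type embryos carry no stated allele or treatment, and nothing below is a comparison of genotypes or a test.

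The midbrain forms between the forebrain and the hindbrain, and a signalling centre at its posterior border, the isthmus, helps to set its identity through Otx2, En1, En2, Pax genes, Wnt1 and Fgf8. At mid-gestation radial glia line the ventricle and divide, intermediate cells that express proneural factors leave the cycle, and young neurons settle in the layers outside. The dorsal midbrain, or tectum, makes mostly glutamatergic and GABAergic neurons, and the ventral midbrain makes the dopaminergic neurons of the substantia nigra and ventral tegmental area beside motor and red nucleus neurons.

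Each library held 16246892 (library 2) to 19090641 (library 1) counts, and 18637 to 19452 genes had a count. Levels of different genes were compared in TPM, which divides a gene's counts by its transcript length and by the library's total of such values. Levels of 1 gene between libraries were compared in CPM, counts relative to a library total that was scaled by TMM. A gene was called detected at 1 TPM or more in all 5 libraries. By that rule 13741 of 29450 genes with a known length were detected (46.7%), among them 12796 of 21205 protein-coding genes (60.3%). Of the genes annotated as long noncoding RNA, 615 of 4419 were detected, and they took 1.18% ± 0.139 of the counts (SD, n = 5). The median level of the detected genes was 26.6 TPM, 10% of them lay at or under 3.71 TPM, and 96 genes exceeded 1000 TPM on average.

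RNA was spread over many genes. The 10 highest genes of a library made up 7.71% ± 0.159 of its TPM and the 100 highest 23.5% ± 0.425 (SD, n = 5). Between 781 and 847 genes were needed to reach 50% of the TPM. All 5 libraries ranked their genes alike at the top, since 23 genes belonged to every library's own 25 highest and 91 to every library's own 100 highest.

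**Figure D1:**
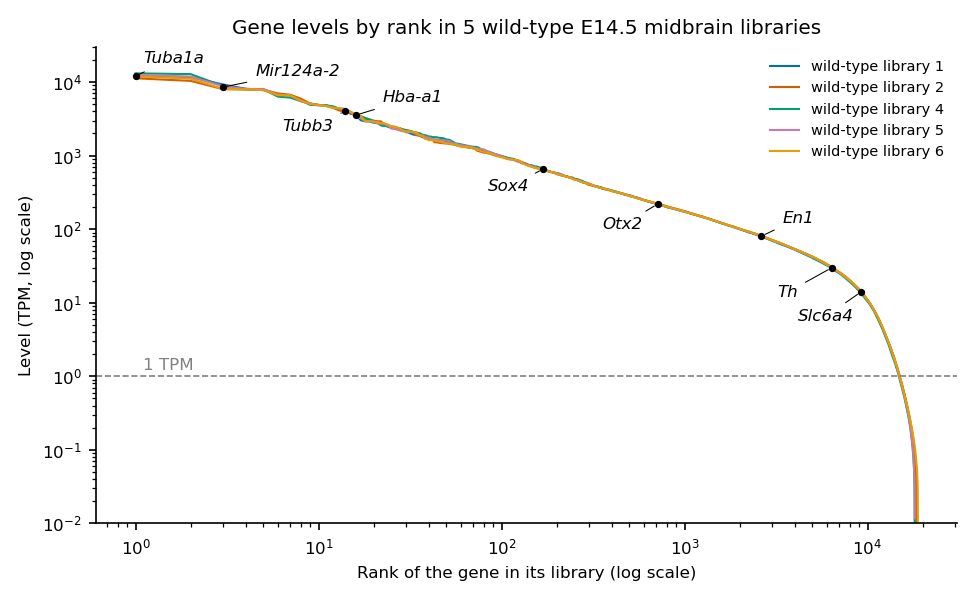
Level of each gene (TPM, log axis) against its rank within its library (log axis), 1 line for each of the 5 wild-type libraries, with black points for the mean level and rank of 9 named genes. The 5 lines nearly coincide from Tuba1a at 12127 TPM down to the dashed line at 1 TPM.

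Genes of the cytoskeleton were prominent at the top of the ranking. Tuba1a, the main alpha-tubulin of young neurons, was the highest gene on average: it stood at 11995, 11264, 12842, 12583 and 11950 TPM in libraries 1, 2, 4, 5 and 6. Its values lay within a narrow range, with library 2 lowest, and in library 4 Eef1a1 was above it (149698 against 146920 counts). The place of Tuba1a also depends on the transcript length. With median transcript lengths it was 4910.2 TPM, under Eef1a1 at 9957 TPM, Eef2 at 5746 TPM and Tubb5 at 5580.1 TPM. Nnat at 5532 TPM and Tubb2b at 5422 TPM were above it as well. Of the 25 highest genes 7 were tubulins, and Tubb2b (8016 ± 94.3 TPM), Tubb2a (4846 ± 167 TPM), Tubb5 (4529 ± 92.0 TPM) and Tubb3 (3984 ± 86.0 TPM) followed (SD, n = 5 each). Tubulin genes as a group held 4.05% ± 0.0520 of the TPM. Tuba1a, Tuba1b and Tuba1c are close copies of each other, so the division of reads among them is uncertain. The stathmins, which bind tubulin dimers, together with the microtubule-associated proteins held 1.29% ± 0.0451, led by Stmn1 at 5653 ± 184 TPM.

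Translation formed another large block. Eef1a1, the factor that brings aminoacyl-tRNA to the ribosome, stood at 11644 ± 1023 TPM and was the second highest gene on average. With exon union lengths it was the third (11058 TPM, after Mir124a-2 at 11266 TPM). The 84 cytosolic ribosomal protein genes held 6.79% ± 0.321 of the TPM and contributed 30 of the 100 highest genes. Their share by library was 6.99%, 6.43%, 7.11%, 6.94% and 6.46% in the order of the library numbers, so libraries 2 and 6 were the lowest. Ribosomal protein genes vary in how many processed copies they have in the genome, and single members such as Rpl13a (82.8 ± 11.1 TPM) lay far under the group's median of 734 TPM. The same holds for the glycolytic enzyme gene Gapdh, a usual reference gene with many processed copies, at 91.1 ± 5.04 TPM. How reads that map to several places were counted is not stated in the labels, so both levels are uncertain.

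Several other leading genes are known from immature neurons or from all cells. Nnat (neuronatin, an imprinted gene of the embryonic brain) stood at 7960.4 ± 127 TPM, Tmsb10 (thymosin beta 10, which binds actin monomers) at 6662 ± 314 TPM and Ubb (a polyubiquitin gene) at 6572 ± 142 TPM. Basp1, a growth cone protein gene, closed the 25 highest at 2330.0 ± 165 TPM. Nuclear genes of oxidative phosphorylation held 1.89% ± 0.0319 of the TPM, glycolysis genes 0.505% ± 0.0138 and chaperones 1.16% ± 0.0463.

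The third highest gene by TPM was a microRNA hairpin, Mir124a-2, the precursor of a microRNA that is known to be abundant in neurons. It stood at 8537 ± 621 TPM (SD, n = 5), but its 109 annotated bases turn few counts into a high TPM, and with median transcript lengths for all genes it was 3457 TPM. Its counts were 6652, 4842, 6116, 6297 and 5494 in libraries 1, 2, 4, 5 and 6, and library 2, which had the fewest counts in all, was the lowest. It alone held 60.9% of all counts on microRNA hairpin genes. Reads on a hairpin from total RNA are precursor or host transcript, and mature microRNA was not measured. Of the 20 hairpin genes with the most counts, 17 matched a mature sequence in the RefSeq table (GRCm38.p6); those of 7 are shown, chosen after their values were seen. They are the sequences of the 2 matched hairpins with the most counts, Mir692-3 and Mir1906-2, and of 5 others chosen as microRNAs known from many vertebrates. Capitals mark the seed, bases 2 to 8 from the 5′ end, and no pair of the 7 shares a seed.
miR-692: aUCUCUUUgagcgccucacuc
miR-1906: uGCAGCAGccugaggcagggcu
miR-138-5p: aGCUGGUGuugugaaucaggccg
miR-16-5p: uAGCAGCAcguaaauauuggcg
let-7i-5p: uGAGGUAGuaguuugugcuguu
miR-181b-5p: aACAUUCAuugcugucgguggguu
miR-125b-5p: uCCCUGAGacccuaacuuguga

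Mir692-3 had 664, 545, 547, 818 and 613 counts in libraries 1, 2, 4, 5 and 6, and Mir1906-2 had 523, 649, 355, 469 and 734. A further copy, Mir692-2, carries the same mature sequence as Mir692-3, so the division of reads between them is uncertain. The hairpin of miR-138, Mir138-2 (mature sequence at chr8:94324312-94324334, plus strand), had 259, 235, 234, 291 and 250 counts in libraries 1, 2, 4, 5 and 6. Mir16-1 had 102 to 167 counts and Mirlet7i 59 to 153. Mir181b-1 had 52 to 111 and Mir125b-2 55 to 79. No order among the libraries is read from counts this low.

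The labelled tissue was then checked against its defining genes. Otx2, the homeodomain factor of the forebrain and midbrain whose posterior limit is the isthmus, stood at 251, 213, 225, 209 and 205 TPM in libraries 1, 2, 4, 5 and 6. En2 stood at 121, 99.4, 106, 154 and 143 TPM and En1 at 68.7, 64.1, 79.2, 87.3 and 102 TPM, both homeodomain factors of the midbrain and anterior hindbrain. The order of the libraries thus differed between these genes, with library 1 highest for Otx2 and libraries 5 and 6 highest for En2 and En1. Pax7, a factor of the dorsal midbrain, stood at 34.9 ± 3.45 TPM, and Pax5 at 43.3 ± 9.51 TPM (SD, n = 5 each). All 4 defining genes and 16 of 18 members of the midbrain and isthmus list were detected, beside 60.3% of all protein-coding genes. The 2 members not detected were Fgf8, the isthmic organiser signal, at 0.130, 0.464, 0.270, 1.69 and 0.660 TPM, and Sp8 at 0.969 to 3.19 TPM. Fgf8 passed 1 TPM in library 5 alone, where Pax2 was also highest (1.67, 1.12, 1.23, 6.06 and 3.29 TPM).

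Genes that mark the neighbouring regions were mostly at or near 0. All 6 Dlx genes, which mark the ventral forebrain, were under the detection rule, and Tbr1, of cortical neurons, averaged 0.715 TPM. Of the forebrain list 4 of 15 members were detected: Lhx2 (171 ± 24.2 TPM), Emx2 (50.5 ± 7.18 TPM), Six3 (39.8 ± 7.31 TPM) and Emx1 (2.45 ± 0.625 TPM). Lhx2, Emx2 and Six3 are homeodomain factors that are not confined to the forebrain in textbook accounts. Of 39 Hox genes, which pattern the hindbrain and spinal cord, 0 were detected and 29 had no count in any library. Hoxd13 was the highest at 0.491 TPM. Gbx2, which marks the anterior hindbrain, stood at 1.99, 1.02, 2.29, 3.63 and 0.794 TPM, low in all libraries and highest in library 5. Pax6, a member of the hindbrain list that is also known from other parts of the neural tube, was detected at 9.70 ± 1.79 TPM.

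**Figure D2:**
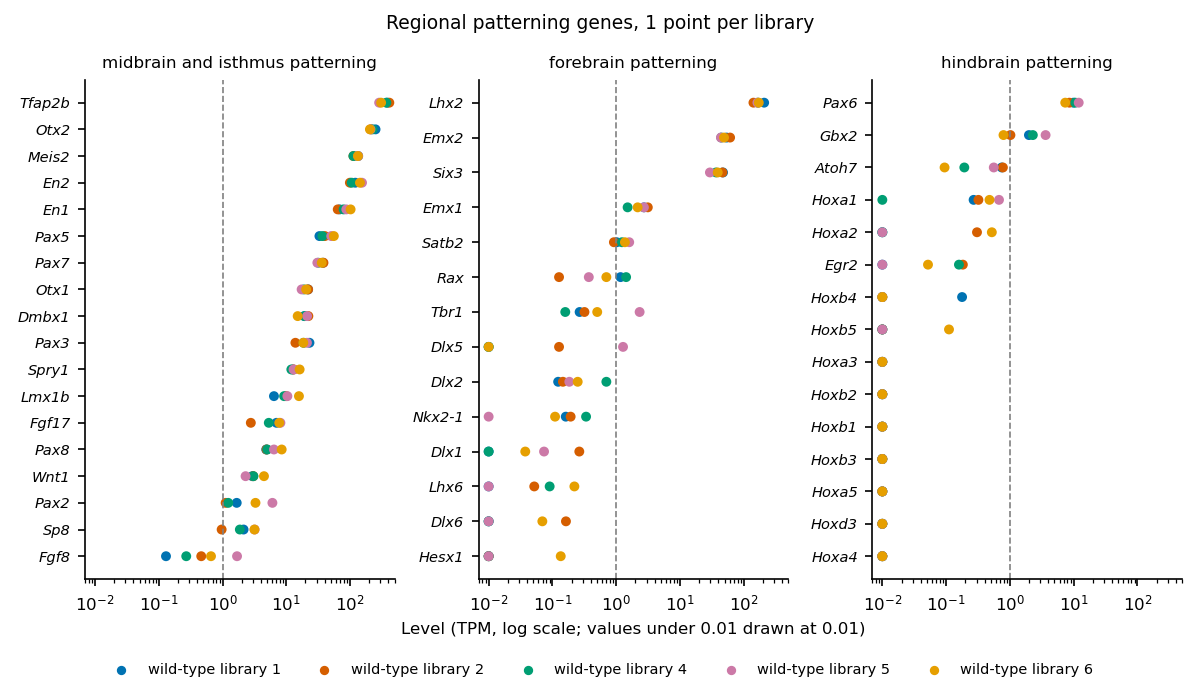
Level of the patterning genes shown (TPM, log axis; values under 0.01 drawn at 0.01) with 1 point per wild-type library, for the midbrain and isthmus, forebrain and hindbrain lists. Midbrain genes lie right of the dashed line at 1 TPM except Fgf8 and 1 point of Sp8, while most forebrain and hindbrain genes lie left of it, with Lhx2, Emx2, Six3 and Pax6 to the right.

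Neuronal genes were far higher than progenitor genes. Tubb3, the neuronal beta-tubulin, stood at 4027, 4116, 3922, 3915 and 3942 TPM in libraries 1, 2, 4, 5 and 6, and Dcx, a microtubule-associated protein of migrating neurons, at 526, 506, 529, 521 and 534 TPM. Both varied little. All 28 genes of the postmitotic neuron list were detected, and their summed level was 22163 ± 726 TPM (SD, n = 5). Mature synaptic and nuclear neuronal genes were lower than the growth genes: Snap25 (83.3 ± 3.09 TPM), Syt1 (119 ± 9.29 TPM) and Rbfox3 (51.3 ± 7.62 TPM) against Gap43 (1735 ± 94.9 TPM). Rbfox1, the splicing regulator at whose locus the series looks, stood at 137, 160, 142, 133 and 135 TPM; it lay between Rbfox2 (306 ± 13.1 TPM) and Rbfox3, and the ranges of the 3 genes did not overlap. Rbfox1 and Rbfox2 are outside the rule for named genes and are given because of the series' subject.

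Radial glia were represented by every member of their list, 25 of 25 detected, with a summed level of 3426 ± 160 TPM. Fabp7, the brain lipid-binding protein, led with 1180, 1248, 1460, 1444 and 1305 TPM in libraries 1, 2, 4, 5 and 6. Sox2, the factor of neural stem cells, stood at 105, 114, 105, 100 and 131 TPM, with no library far from the others. Vim (466 ± 59.8 TPM), Hes5 (108 ± 17.5 TPM) and Nes (80.5 ± 11.5 TPM) followed. The ratio of the summed neuron list to the summed progenitor list was 6.60, 7.15, 6.36, 5.94 and 6.37, highest in library 2 and lowest in library 5. This is a ratio of RNA and not of cells; in bulk tissue, more cells of a class and more RNA per cell cannot be told apart.

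Several genes of dividing cells and committed intermediates were low in library 2. The summed cell cycle list was 905, 557, 751, 916 and 769.9 TPM in libraries 1, 2, 4, 5 and 6, and the intermediate list was lowest in library 2 as well, at 698 TPM against 842 to 1027 TPM. Mki67, a protein of cycling nuclei, stood at 21.3, 7.71, 15.2, 17.8 and 16.3 TPM in libraries 1, 2, 4, 5 and 6. Top2a, the topoisomerase of dividing cells, stood at 56.4, 21.8, 42.4, 56.5 and 40.9 TPM. In both, library 2 lay well under the other 4. Neurog1, a proneural factor, stood at 15.3 ± 6.99 TPM with 3.54 TPM in library 2 and 15.7 to 21.1 TPM elsewhere. Neurog2 (25.9 TPM against 42.5 to 48.3) was also lowest in library 2. Ccnb1, the mitotic cyclin, stood at 32.2, 11.5, 26.7, 31.8 and 25.6 TPM in the same order, again lowest in library 2. Pcna, which serves replication and repair, was less spread, at 142 TPM in library 2 and 148 to 183 TPM in the others.

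Both main transmitter classes of the tectum were present. Slc17a6, the vesicular glutamate transporter of subcortical neurons, stood at 182, 174, 188, 169 and 171 TPM in libraries 1, 2, 4, 5 and 6. Gad1, which makes GABA, stood at 150, 167, 152, 145 and 154 TPM. Neither gene showed a library apart. Slc17a7, the cortical transporter, was at 0.553 ± 0.252 TPM and was the 1 member of 12 in the glutamatergic list not detected. Pou4f1, which marks tectal and red nucleus neurons, stood at 91.1 ± 10.4 TPM, Gad2 at 80.0 ± 2.82 TPM and Slc32a1, the vesicular GABA transporter, at 93.4 ± 11.6 TPM. All 14 GABAergic members were detected, including the selector factors Tal1, Tal2, Gata2, Gata3 and Helt. The glutamatergic list summed to 1421 ± 124 TPM and the GABAergic list to 1120 ± 52.8 TPM. With median transcript lengths their order turned, to 907 and 970 TPM, so no order of the 2 classes is read here.

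Dopaminergic genes formed a smaller group, all 17 of which were detected. Th, the rate-limiting enzyme of dopamine synthesis, stood at 28.0, 31.2, 30.5, 29.4 and 31.0 TPM in libraries 1, 2, 4, 5 and 6, a spread of 1.33 TPM (SD). Slc6a3, the dopamine transporter, was lower and less even, at 7.56, 13, 10.8, 7.07 and 9.23 TPM. Pitx3 (20.5 ± 3.41 TPM) and Nr4a2 (31.8 ± 4.37 TPM) are factors of dopaminergic differentiation, and Pitx3 was under Th in every library. Foxa2, a factor of the floor plate and of dopaminergic progenitors, ranged from 11.4 TPM in library 5 to 32.7 TPM in library 2. Roof plate and dorsal genes were led by the zinc finger factors Zic1 (77.1 ± 9.41 TPM) and Zic2 (44.9 ± 4.30 TPM), while Wnt3a was at 0.382 TPM. Msx1, a homeodomain factor of the dorsal midline and of the ventral midbrain, stood at 6.52, 7.19, 7.49, 2.67 and 3.82 TPM, lower in libraries 5 and 6 than in the other 3. En1 and En2 belong both to the dopaminergic list and to the patterning list.

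Serotonergic genes, which mark neurons found chiefly in the raphe of the hindbrain, were low and differed by library. Slc6a4, the serotonin transporter, stood at 6.90, 8.79, 12.5, 14.5 and 27.3 TPM in libraries 1, 2, 4, 5 and 6. Tph2, the rate-limiting enzyme of serotonin synthesis, stood at 3.18, 4.61, 6.60, 7.23 and 17.6 TPM, and Fev, the serotonergic selector factor, at 2.04, 6.19, 10.5, 10.2 and 17.2 TPM. All 3 were lowest in library 1 and highest in library 6. The floor plate genes Shh (6.89, 8.70, 7.81, 8.75 and 12.4 TPM) and Ntn1 (58.3, 92.1, 72.3, 66.4 and 109 TPM) had the same lowest and highest library. Foxa1 (16.4, 25.9, 21.1, 12.2 and 19.3 TPM) and Foxa2, also of the floor plate list, did not, being highest in library 2 and lowest in library 5. Noradrenergic genes were not detected: Dbh averaged 0.639 TPM and Slc6a2 0.499 TPM, and library 5 had the highest value of each, 2.02 and 1.33 TPM. Of the 4 defining motor neuron genes, Isl1 (6.0 ± 2.69 TPM) and Slc18a3 (2.73 ± 0.723 TPM) were detected. Chat (0.628 ± 0.493 TPM) and Phox2a were not. In the whole cholinergic and motor neuron list 7 of 11 members were detected (63.6%, beside 60.3% of protein-coding genes).

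Genes of glial cells covered a wide range, and 7 of 10 astrocyte genes were detected (70.0%, beside 60.3% of protein-coding genes). Sparcl1, a matrix protein gene, was the highest at 142, 172, 186, 226 and 215 TPM in libraries 1, 2, 4, 5 and 6, and Aldoc stood at 51.5 ± 6.89 TPM. Gfap had no reads in any library, and Aqp4 stood at 1.97 ± 0.526 TPM. Aldh1l1, which radial glia also express, stood at 33.3 ± 4.69 TPM, and Glul and Slc1a2 at 116 ± 4.67 and 46.2 ± 2.31 TPM. In the oligodendrocyte lineage Olig1 (34.8, 72.4, 49.6, 38.8 and 57.4 TPM in libraries 1, 2, 4, 5 and 6) and Olig2 (13.1, 22.5, 14.4, 16.7 and 18.4 TPM) were highest in library 2. Pdgfra, of oligodendrocyte precursors, stood at 4.84 ± 1.47 TPM and Sox10 at 2.27 ± 1.15 TPM. Opalin, of mature cells, had no reads, and Mobp averaged 0.00938 TPM. Mog, also a gene of mature oligodendrocytes, stood against this at 30.2 ± 4.0 TPM, and Mbp at 18.7 ± 1.34 TPM.

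Vascular and immune genes were present in all libraries. The endothelial list was detected in full, 18 of 18, with a summed level of 392 TPM in library 6 and 349.7 to 357 TPM in the other 4, and was led by the tight junction gene Cldn5 (93.3 ± 8.0 TPM). Of 13 pericyte genes 10 were detected, with a summed level of 187 TPM in library 6 and 154 to 169 TPM in the others, and with Rgs5 at 51.9 ± 7.0 TPM and Pdgfrb at 12.9 ± 2.19 TPM. Of the microglia and macrophage list 11 of 17 members were detected (64.7%, beside 60.3% of protein-coding genes). All 4 defining genes were among them, C1qa (14.8 ± 1.37 TPM), P2ry12 (8.93 ± 1.59 TPM), Cx3cr1 (6.83 ± 0.802 TPM) and Csf1r (6.35 ± 0.311 TPM), while Trem2 (1.11 TPM), Ptprc (0.849 TPM) and Mrc1, of border macrophages (0.406 TPM), were not.

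**Figure D3:**
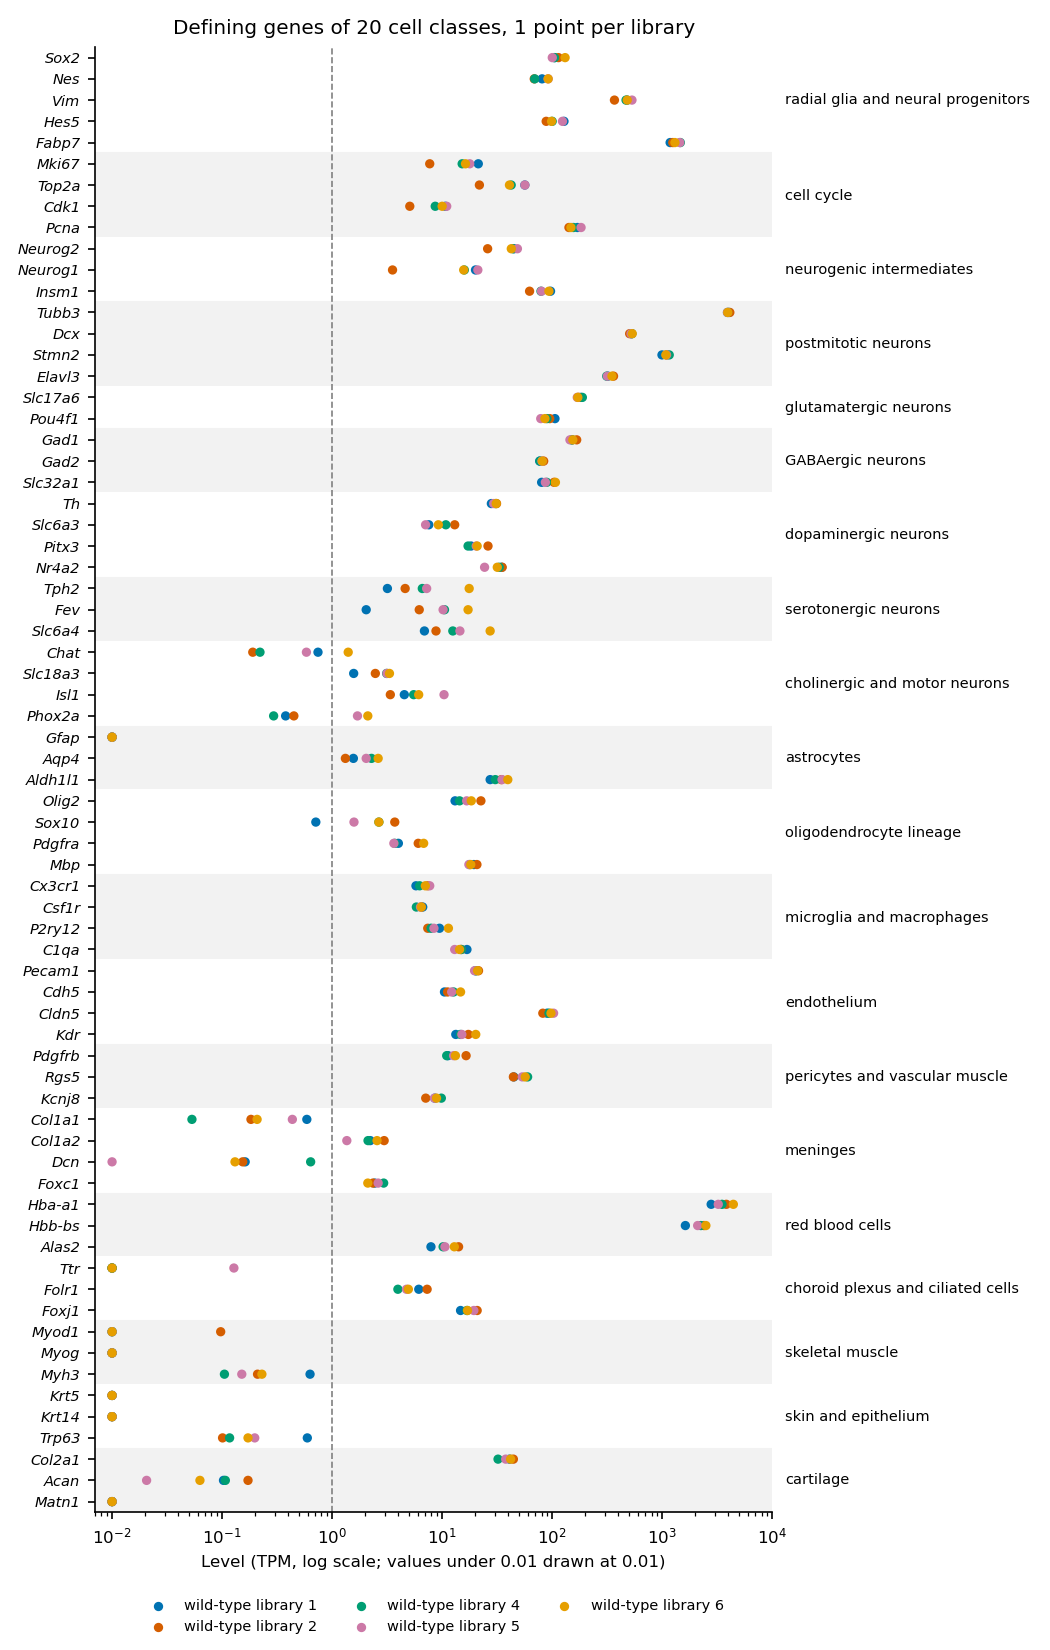
Level of defining genes of 20 cell classes (TPM, log axis; values under 0.01 drawn at 0.01), 1 point per wild-type library, with the dashed line at 1 TPM. Tubb3 and the globins stand highest, library 2 lies left of the others in the cell cycle rows, and Gfap, Myog, Krt5, Krt14 and Matn1 lie at the left edge.

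Red cell genes were the highest of the lists for cells from outside the neural tissue, with a summed level of 9735 ± 1452 TPM (SD, n = 5). Hba-a1, an adult alpha-globin, stood at 2785, 3827, 3496, 3231 and 4430 TPM in libraries 1, 2, 4, 5 and 6, and Hbb-bs, an adult beta-globin, at 1623, 2396, 2241, 2100 and 2494 TPM. Library 1 was lowest and library 6 highest for both. Hba-a2 (2273 ± 370.3 TPM) is a near copy of Hba-a1, so the share of each is uncertain. Hbb-bt stood at 1235 ± 215 TPM, and the embryonic globins were lower, with Hbb-y at 458 ± 83.1 TPM and Hba-x at 29.6 ± 6.32 TPM. Globins held 0.972% ± 0.145 of the TPM, from 0.771% in library 1 to 1.16% in library 6. Alas2, the haem synthesis enzyme of red cells, stood at 11.1 ± 2.42 TPM, while Rhag and Hemgn averaged 0.110 and 0.0267 TPM.

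The stretch around the start is shown for 4 of the globin genes, since globins were the highest members of the non-neural lists (RefSeq, GRCm38.p6; 60 bases before to 20 after each annotated start). Capitals mark TATAA, searched on the strand shown over the 60 bases before the start. It begins 27 bases before the start of Hba-a1, 29 before that of Hbb-bs and 28 before that of Hbb-bt, and it is not in the window of Hbb-y. Of 20731 promoters of protein-coding genes, 7.31% hold these letters in that window on either strand. The match is a description of sequence, and binding was not measured.
Hba-a1 (chr11:32283612-32283691, plus strand): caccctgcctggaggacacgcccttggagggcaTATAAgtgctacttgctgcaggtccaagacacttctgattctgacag
Hbb-bs (chr7:103827909-103827988, minus strand): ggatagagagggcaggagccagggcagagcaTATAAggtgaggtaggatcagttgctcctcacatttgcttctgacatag
Hbb-bt (chr7:103813904-103813983, minus strand): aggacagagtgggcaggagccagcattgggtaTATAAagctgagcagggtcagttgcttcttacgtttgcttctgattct
Hbb-y (chr7:103853188-103853267, minus strand): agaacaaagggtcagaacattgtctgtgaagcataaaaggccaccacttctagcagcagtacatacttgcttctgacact

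Lists of other tissues around the brain differed in their defining genes. None of 3 was detected for skeletal muscle or for skin, and 1 of 3 was for cartilage. For the meninges 2 of 4 were detected, and for choroid plexus and ciliated cells 2 of 3. These counts stand beside 60.3% of all protein-coding genes detected by the same rule. Of the meningeal list 7 of 16 members were detected (43.8%). Col1a1 and Dcn averaged 0.294 and 0.217 TPM, and Foxc1 and Col1a2 2.49 and 2.25 TPM. Ttr, of the choroid plexus, had no reads in 4 libraries and 0.128 TPM in library 5. Myod1 and Myog of muscle, Krt5 and Krt14 of skin and Matn1 of cartilage had no reads in at least 4 libraries. Single members of these lists were higher: Igf2 stood at 41.2 ± 3.81 TPM and Crabp2 at 34.5 ± 8.33 TPM in the meningeal list, Folr1 of the choroid plexus at 5.41 ± 1.31 TPM, Col2a1 at 39.5 ± 4.71 TPM with Acan at 0.0932, Krt10 at 17.5 ± 1.32 TPM with Krt14 at 0, and Foxj1, of ciliated cells, at 17.7 ± 2.40 TPM.

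Transcription factors were counted in 57 families matched by gene symbol. Of 1230 members 879 were detected (71.5%, beside 60.3% of protein-coding genes), 653 averaged over 10 TPM, and together they held 3.28% ± 0.0640 of the TPM. The C2H2 zinc fingers, the largest class, had 492 of 574 members detected, and the basic helix-loop-helix class had 71 of 106. The homeodomain class had the lowest share, 95 of 208, where the Hox genes (0 of 39) and Dlx genes (0 of 6) lie. All members were detected in the Meis, Pbx and Tgif family (11 of 11), the E2f family (10 of 10), the Ebf family (4 of 4), the Nfi family (4 of 4) and the Id family (4 of 4). The T-box family had 2 of 15 members detected and no member over 10 TPM.

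The highest factors were those of young neurons and of general use. Sox4 and Sox11, group C Sox factors of newborn neurons, led with 657 ± 20.8 and 530 ± 27.4 TPM (SD, n = 5). Thra, the thyroid hormone receptor alpha, followed with 508 ± 28.3 TPM, Jund, an AP-1 member, with 502 ± 20.8 TPM, and Maz, a zinc finger factor, with 408 ± 26.4 TPM. Id4, which holds back basic helix-loop-helix factors, stood at 304 ± 11.7 TPM, and the homeodomain cofactor Pbx3 at 247 ± 10.1 TPM. The immediate early genes Fos and Egr1 were low, at 0.497 and 1.38 TPM, and Jun stood at 33.3 ± 2.12 TPM. The stress gene Hspa1b, an inducible chaperone, stood at 11.4, 15.6, 11.2, 14.1 and 12.5 TPM in libraries 1, 2, 4, 5 and 6, with no library apart.

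Among the highest factors, some differed more between libraries. Tcf7l2, an effector of Wnt signalling, stood at 442, 402, 412, 214 and 246 TPM in libraries 1, 2, 4, 5 and 6. Libraries 5 and 6 were thus near each other and well under the other 3. Tfap2b, of the dorsal midbrain, was also lowest there, at 384, 413, 371, 286 and 307 TPM. Ebf3 (315 ± 29.3 TPM) and the LIM factor Lhx9 (231 ± 16.7 TPM) stood between these and Otx2 in level and differed less between libraries. The orphan receptor Nr2f1 closed the 25 highest factors at 155 ± 26.6 TPM. Leaders of other families included Hes6 at 176 ± 15 TPM, Shox2 at 135 TPM, Gata3 at 71.4 ± 10 TPM and Nkx2-2 at 16.0 ± 5.61 TPM.

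Of the long noncoding RNAs, Meg3 was the highest. Meg3, an imprinted RNA, stood at 297, 368, 232, 274 and 305 TPM in libraries 1, 2, 4, 5 and 6. Mir100hg (278 ± 23.8 TPM), Malat1 (265 ± 24.3 TPM), Miat (260 ± 41.3 TPM), Rnf227 (249 ± 14.6 TPM), which the annotation types as noncoding, and Rian (219 ± 15.2 TPM) followed. H19, Snhg1 and Snhg12 were listed with no reads and Gas5 at 0.193 TPM; as these genes overlap or host small RNA genes, how such reads were assigned bears on their values and was not tested.

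The libraries were then compared with each other. Among 10330 genes with a mean of at least 10 CPM, the median SD of log2 CPM over the 5 libraries was 0.117, and the middle 80% of genes lay between 0.0576 and 0.216. The highest and lowest library of a gene differed 1.22-fold in the median. The common biological coefficient of variation estimated by edgeR was 9.78%. Counting error was a larger part of the spread of low genes than of high genes: from 10 to 30 CPM the median coefficient of variation was 11.2% against 5.44% from counting alone, and above 1000 CPM it was 4.99% against 0.610%. In all, 38 genes (0.368%) had an SD over 0.5 and 7 over 1. Libraries 2 and 5 were the furthest from the mean for 14 and 13 of these 38 genes, and in library 2 all 14 were lower. Over all 10330 genes, library 2 was the furthest for 30.1%, library 4 for 28.1% and library 5 for 17.8%.

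**Figure D4:**
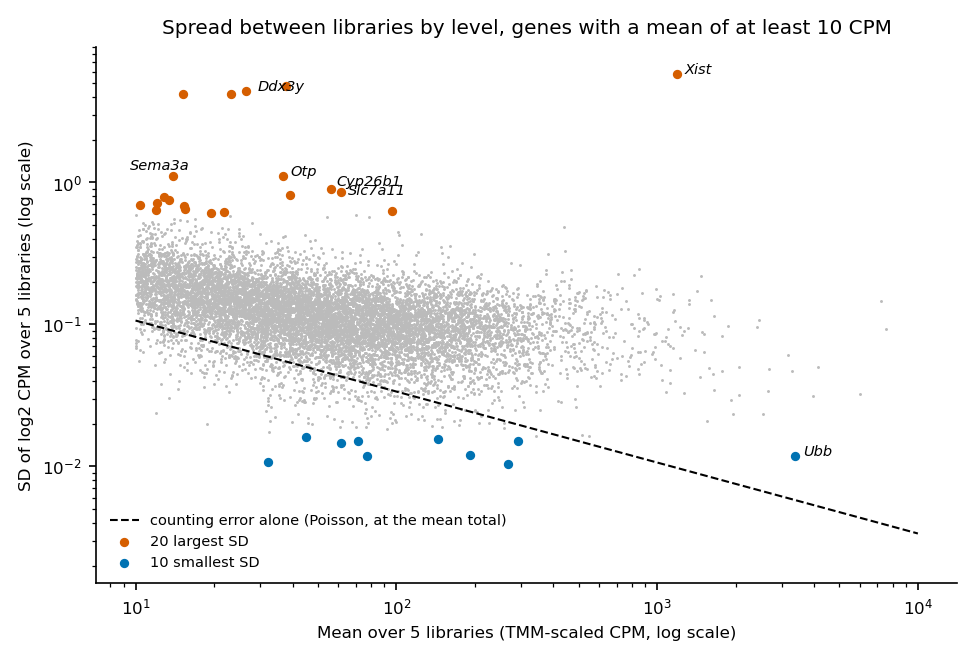
SD of log2 CPM over the 5 libraries (log axis) against mean CPM (log axis) for genes of at least 10 CPM, with the 20 largest and 10 smallest SD in colour and the SD that Poisson counting alone gives as a dashed line. Xist and the Y-linked genes stand above 4, Otp and Sema3a near 1.1, and Ubb lies nearest the counting line at the right.

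The 5 most variable genes were Xist, the RNA that coats the inactive X chromosome, and 4 genes of the Y chromosome. Xist stood at 2.30, 1851, 0.610, 2079 and 2037 CPM in libraries 1, 2, 4, 5 and 6. Ddx3y stood at 66.1, 0.856, 66.1, 0.0522 and 0.0526 CPM and Eif2s3y at 97.2, 0, 90.8, 0.418 and 0.105 CPM. Xist and the Y genes were thus high in different libraries. A count of 0 in library 2 allows up to 0.185 CPM, for counting error only. The labels give no sex, and the libraries were not divided by it.

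Next came genes of regional neuron groups and guidance. Otp, a homeodomain factor of neuroendocrine and hindbrain neurons, stood at 16.4, 11.8, 31.7, 35.1 and 88.3 CPM in libraries 1, 2, 4, 5 and 6, a 7.49-fold range with library 6 highest. Cyp26b1, which degrades retinoic acid, stood at 33.0, 26.3, 34.5, 117 and 71.2 CPM. Sema3a, a repulsive guidance cue, stood at 8.36, 4.09, 8.93, 32.9 and 15.6 CPM. For Cyp26b1 and Sema3a library 5 was highest, library 6 next and library 2 lowest. Robo3, a receptor of commissural axons, at 13.8, 7.58, 11.6, 27.8 and 16.1 CPM, had the same order at both ends. Cdh9, a cadherin, was 25.9 CPM in library 5 and 7.64 to 9.46 CPM elsewhere. Nr2f2, an orphan receptor, went the other way, with 42.6 CPM in library 5 and 99.1 to 134 CPM in the other 4.

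Other genes stood apart in 1 library. Slc7a11, the cystine transporter, was 19.1 CPM in library 6 and 66.5 to 76.5 CPM in the others. Dbx1, a homeodomain factor of progenitors, was 13.4 CPM in library 2 and 37.5 to 58.9 CPM elsewhere. Rnaset2b was 4.31 CPM in library 6 and Gstp2 4.08 CPM in library 5, against 13.3 to 15.7 and 10.9 to 12.9 CPM in the others; both have a close copy in the genome, so their counts are uncertain. The 20 most variable genes also held the cell cycle genes Bub1b, Pclaf, Ccnb1 and Kif11, each lowest in library 2. Bub1b, a spindle checkpoint kinase, stood at 17.8, 6.48, 17.0, 19.5 and 17.0 CPM.

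Read by list, the cell cycle genes had the highest share of widely spread members among the cell class lists with more than 10 members above 10 CPM. Of their 27 members with at least 10 CPM, 24 were in the top class of SD, which holds 10% of the 10330 genes by construction. Relative to the mean of the 5 libraries, the median of the 33 members above 1 CPM was 0.286, -0.654, 0.015, 0.322 and 0.036 on the log2 CPM scale in libraries 1, 2, 4, 5 and 6, and 32 of 33 were below their mean in library 2. For the neurogenic intermediates 10 of 14 lay in that class, and the median was -0.408 in library 2. The median over all genes lay between -0.0052 and 0.0051 in each library. The radial glia list had a median of 0.003 in library 2, but its members went both ways, with 12 of 25 below their mean there. Vim (368 TPM) and Hes5 (88.2 TPM) were lowest in library 2, while Dbi (284 TPM) was highest there. Of the 24 radial glia members with at least 10 CPM, 7 lay in that class. The neuron list had 0 of 28 members in that class and stood at 0.062 in library 2. After trends on length and GC were taken out of each library, the 27 cell cycle members above 10 CPM had a median of -0.644 in library 2. The 24 radial glia members had -0.043. Scaling by totals changed the sign of the cell cycle median in library 4 alone, from 0.015 to -0.003. Library 2 also had the fewest counts. Its slope on transcript length was 0.0211 log2 CPM per doubling, beside 0.0199 in library 6 and -0.0238 in library 4. The part of depth and of these slopes in the result was not tested beyond that removal.

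In the serotonergic list the median of 7 members ran from -0.843 in library 1 to 1.11 in library 6. Of these members 1 was above 10 CPM, too few for values with length and GC trends taken out. In the floor plate list the median ran from -0.220 to 0.478 in the same libraries. For the 7 floor plate genes above 10 CPM, with length and GC trends taken out, the values were -0.171 and 0.163. Red cell genes ran from -0.286 in library 1 to 0.288 in library 6, with all 5 members above 10 CPM in the top 10% of SD. The oligodendrocyte lineage was highest in library 2, at 0.359, and lowest in library 5, at -0.217; for its 8 genes above 10 CPM with the trends taken out these were 0.301 and -0.11, with library 1 at -0.112. Ribosomal proteins differed less, from -0.102 in library 2 to 0.098 in library 4. Of the 80 members, 67 were below their mean in library 2 and 72 in library 6, where the median was -0.087. These directions held under RLE, upper-quartile and total scaling. Dissection borders and blood content are not given in the labels, and their part in these differences was not tested.

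**Figure D5:**
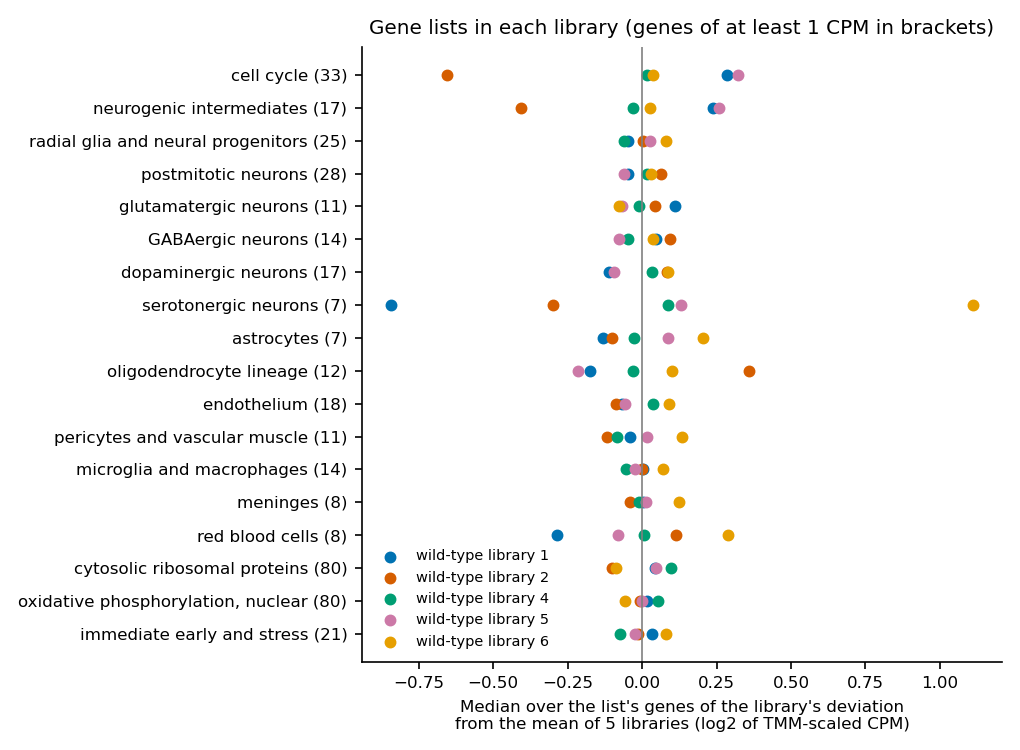
Median over the genes of each list of the library's deviation from the mean of the 5 libraries (log2 of TMM-scaled CPM), 1 point per library and list. Library 2 stands at -0.654 for the cell cycle and -0.408 for neurogenic intermediates, library 6 at 1.11 for serotonergic genes, and the neuron and progenitor lists lie near 0.

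The most stable genes were of several kinds. Snn (stannin) stood at 268, 272, 270, 269 and 267 CPM in libraries 1, 2, 4, 5 and 6, an SD of 0.0104 on the log2 scale, and Ubb at 3414, 3413, 3349, 3384 and 3373 CPM. Igf2bp3, Kctd17, Cand1, Zfp236, Bsg, Afg3l1, Grina and Ttc17 completed the 10 smallest. For 9 of these 10 the coefficient of variation was under that of counting alone (Igf2bp3 0.741% against 4.12%). Among the reference genes Actb was the steadiest with an SD of 0.0233, followed by Sdha with 0.0432 and Ywhaz with 0.0604. Tbp (0.132), Eef1a1 (0.147), Rplp0 (0.148), Pgk1 (0.149), Gusb (0.172) and Rpl13a (0.211) were among those that exceeded the median of all genes.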

How the data were processed

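The authors deposited whole-number counts per Entrez gene for the series, without normalization. The submitters' processing notes name HISAT2, featureCounts and mm39. Per the labels' protocols, a Direct-zol kit gave the total RNA. The sources used here do not give library selection, strandedness or the treatment of multiply mapping reads, and without strand, overlapping genes cannot be told apart. Of 30935 gene IDs, 30648 had a symbol (RefSeq, GRCm38.p6). A length, that of the longest GENCODE M21 transcript, was found for 29450: 22115 by Entrez ID and 7335 by symbol; IDs without one held 0.18% of counts. TPM was computed from these lengths. CPM was scaled by TMM within the 5 libraries (edgeR 4.0.16, R 4.3.3) and a prior count of 2 was added before log2. There is 1 group, so no test was made and spreads measure only these samples. No pair of libraries was a duplicate: chi-square over its degrees of freedom was at least 6.65 in every pair. The spread functions were tested on simulated data.

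Named genes were the 25 highest by TPM; the defining and 4 highest other members of each list; the 25 highest factors and family leaders; patterning, reference, X and Y genes; the 10 highest long noncoding RNAs; and the 20 largest and 10 smallest SD. Members and lists were chosen with earlier results of these data known. Alternatives were other transcript lengths, detection rules, scalings and filters, and leaving out each library. No column of per-sample values was left without a sample (0 columns). Some genes that meet the rule are not reported here.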

Additional observations from a re-analysis of the deposited data

Results flagged for a closer look

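In groups of 5, a value was picked where the gap between the highest or lowest library and its nearest neighbour exceeded 0.71 of the whole range (Dixon's rule). Of 120 values examined 14 were picked; chance gives about 1 in 20, and the most variable genes were chosen for their spread, so more of them are to be met. Among gene lists, the summed endothelial level was 392 TPM in library 6 against 349.7 to 357 TPM in the others, and the forebrain list was 315 TPM in library 1 against 246 to 265 TPM. Stathmins and microtubule-associated proteins held 1.37% of TPM in library 2 against 1.26% to 1.29%.

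Single genes low in 1 library were Slc7a11 (19.1 CPM) and Rnaset2b (4.31 CPM) in library 6, Gstp2 (4.08 CPM) in library 5, Bub1b (6.48 CPM) and Ptma (3915 TPM against 4251 to 4367 TPM) in library 2, and Cand1 (189.7 CPM against 193 to 194 CPM) in library 1. Single genes high in 1 library were Cdh9 (25.9 CPM) in library 5, Gapdh (112 CPM against 99.7 to 102 CPM) in library 5, and Hprt (30.2 CPM against 24.6 to 25.9 CPM), Actb (2005 CPM against 1926 to 1947 CPM) and Actg1 (5070.2 TPM against 4840.1 to 4904 TPM) in library 4. The gaps of Cand1, Actb and Actg1 are a few percent of their level.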

How the results depend on the processing

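The count of detected genes stayed within 1.5 times of 13741 under all 5 other lengths and rules tried (13128 to 16519) and that of transcription factors within 1.5 times of 879 (848 to 974). Transcript length moved the levels. The share of the 100 highest genes, 23.5%, became 24.8% with exon union lengths, 19% with median transcript lengths, 15.1% by counts with no length and 23.1% without RNAs under 400 bases. The neuron to progenitor ratio, 6.48, became 7.26, 7.82 and 8.35 under the first 3 of these. Of the 25 highest genes, 23, 16 and 18 stayed among the 25 highest under the same 3. The median SD, 0.117, was 0.143 with filterByExpr and 0.242 with no filter, and 0.103 with length and GC trends removed; edgeR's median tagwise coefficient of variation, another quantity, was 0.0892. The median SD did not move with RLE, upper-quartile or total scaling. Leaving out each library gave 13817 to 13890 genes, 881 to 888 factors, shares of 23.4% to 23.6%, ratios of 6.32 to 6.62 and median SDs of 0.103 (without library 2) to 0.121. Without library 2 or without library 5, 15 of the 20 most variable genes stayed among the 20; with filterByExpr (14245 genes) 4 did and with no filter (21847 genes) 5, as more low genes were ranked. No paired analysis was possible because only 1 group was described. At 3 counts the limit of a library is 0.157 to 0.185 CPM; short RNAs reach 1 TPM with less than 1 count.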

Other observations

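The promoters of the genes expressed in this tissue differed in base composition by level, as a description over promoters that are not independent replicates. Over the 300 bases around 20731 RefSeq starts of protein-coding genes (GRCm38.p6), the median ratio of observed to expected CpG was 0.207 for genes not detected and 0.749 for detected genes. On either strand, TATAA stood in the 60 bases before the start of 14.5% of promoters of genes not detected (1086 of 7478). The share was 3.24% for those detected (430 of 13253). The share was not lowest at the top: among genes over 1000 TPM it was 17.3% (13 of 75 promoters), globins included, while from 100 to 1000 TPM it was 3.17%. Some annotated starts may lie off the true start, which was not tested.

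With Xist, Tsix and the listed Y-linked genes left out, the first 2 principal components of log2 CPM held 41.8% and 26.3% of the variance. Other X-linked genes were kept. Library 2 stood at 15.9 on the first, with the others between -8.73 and 2.26, and library 4 at 12.5 on the second. Over the same genes, the pairwise root mean square distance ran from 0.180 (libraries 1 and 6) to 0.262 (libraries 2 and 5) on the log2 scale.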
